A study of Acyrthosiphon pisum with 15 samples.

Results

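Winged males of the pea aphid, Acyrthosiphon pisum, were compared with winged asexual females, so that sex was compared between forms that both carry wings. The comparison used 6 of the 15 whole-body RNA libraries of the series, chosen by their labels: winged males and winged asexual females of clones F1, I18 and BK11, with n = 3 libraries per sex. Each library pooled 30 adults. Winged asexual females were reared at 18 °C with 16 h light and 8 h dark, winged males at 15 °C with 13 h light and 11 h dark, and both were 2 days old. Day length and temperature therefore cannot be told apart from sex in these 6 libraries. The other 9 libraries were wingless asexual females, reared like the winged ones, and wingless males and sexual females, both reared like the winged males. Sexual females were 2 to 6 days old and the wingless asexual females and males 2 days old. The clones are the labels' biological replicates, and a pool of whole animals gives no measure of the variation among animals of a clone.

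Asexual females of this species reproduce without males and carry developing embryos in their ovaries, so their whole-body RNA includes that of the embryos. Males arise within the same clone through the loss of an X chromosome, carry testes and mate with egg-laying sexual females in autumn. Wings in asexual females are induced by crowding and other cues, whereas wings in males follow the genotype at a sex-linked locus. Wings and flight muscles are thus present in both groups, while gonads and gametes differ.

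Female libraries were the deeper ones, with 53153012, 43309865 and 75066116 recovered reads in the F1, I18 and BK11 winged females against 31239249, 33003478 and 29233690 in the winged males. Nevertheless, more gene models were detected in males. Of 20657 gene models, 17981, 17752 and 17670 reached a normalised count of 10 in the F1, I18 and BK11 winged males, and 15492, 15675 and 16017 in the females. At a common depth of 29233690 reads, the expected number of gene models with a read was 20049, 20110 and 19999 in the males and 18962, 19249 and 19405 in the females. The normalised count is the number of reads after scaling for library size, with no correction for gene length, so it does not rank gene models by abundance of their transcripts.

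The winged libraries were checked for the level of 13 gene models that stood at 10000 or more in every sexual female, and at most 100 in every wingless asexual female and in the F1 wingless male. This list was chosen after the values were seen. Its median was 1029 in the BK11 winged male, or 1.19% of the sexual female level, and 223.5 (0.253%) in the I18 winged female, with all 13 members above 0 in both. The summed level was 38440 in the BK11 winged male and 7779 in the I18 winged female, and ranged from 56.5 to 438.9 in the other 4 winged libraries, where 5 to 8 members were at 0. A list of 13 gene models of wingless asexual females stood at a median of 0.0692% to 0.114% of its source level in the 3 winged males. Counts are therefore given below also without the BK11 winged male and the I18 winged female.

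The sexes differed in 8320 of the 20301 gene models tested, or 41.0% (limma, Benjamini-Hochberg adjusted p threshold 0.05). In winged males 4430 gene models were higher (21.8% of those tested) and 3890 lower (19.2%). In whole bodies, more cells of a type and more RNA per cell cannot be told apart. Among the calls, the differences were larger on the male side. Among the higher gene models the median log2 fold change was 2.95, and 2174 of them (49.1%) reached 8-fold and 818 reached 32-fold. Among the lower ones the median was −1.73, with 824 (21.2%) at 8-fold and 272 at 32-fold. At 1024-fold there were 87 higher and 7 lower gene models. The sides differed in the level of the lower group, at a median of 18.65 in winged females for the higher calls and 450.1 in winged males for the lower calls. A count of 3 reads was worth 2.09 on average in winged females and 3.97 in winged males. Whether these levels bear on the larger folds of the male side was not tested. Without the BK11 winged male and the I18 winged female, 3207 were higher and 2772 lower.

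**Figure D1:**
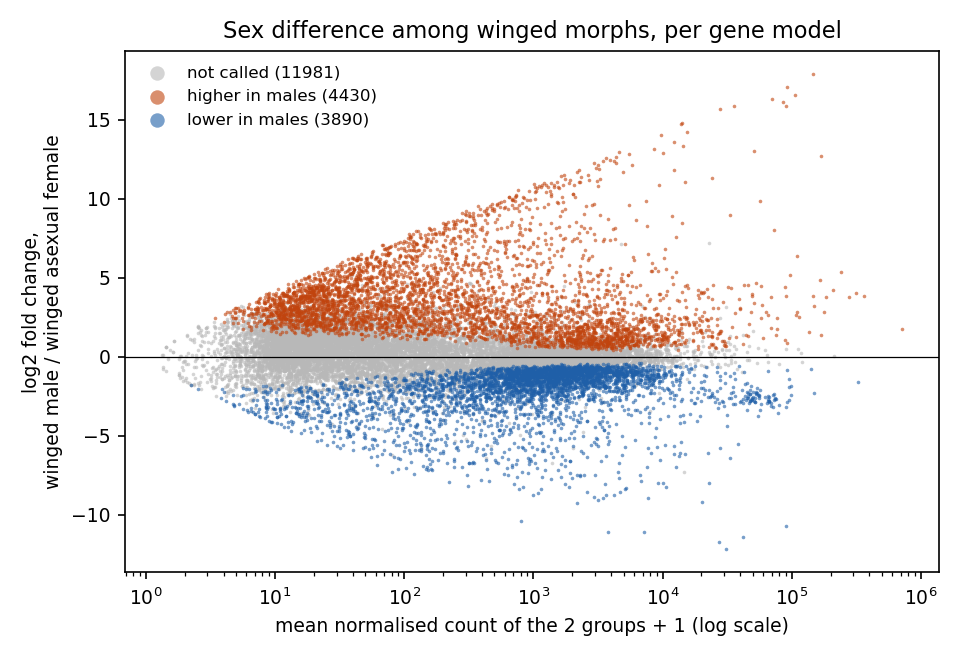
Each point is a gene model; the horizontal axis gives its mean normalised count in both winged groups (log scale) and the vertical axis its log2 fold change, male over female. Gene models higher in males (4430) spread up to changes above 15, while most of the 3890 lower ones lie within 8-fold of 0 and gather at higher read counts.

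Which side held more calls depended on the scaling. Higher gene models made up 53.2% of the calls as deposited and 47.5% after trimmed mean scaling. On recovered reads the share was 45.1% by edgeR and 53.7% by DESeq2. The median log2 difference over all gene models tested was 0.22 with the deposited scaling and 0.09 with trimmed means, a shift of 0.14. Of the 11981 gene models not called, 1785 (14.9%) had a 95% interval that lay wholly within 2-fold in either direction. For the other 10196 the interval reached beyond 2-fold, so these libraries do not show whether the sexes differed by that much.

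The deposited identifiers carry no gene names. Only 61 of them were found in the gene table, and 1 had a symbol, so most gene models are given as identifiers without a role. ACYPI001191-RA had the largest increase in males among gene models with a mean of at least 100 over all 15 libraries. Its normalised count was 255500, 181400 and 442300 in the F1, I18 and BK11 winged males, and 0, 0 and 0.54 in the winged females of these clones. A single read stood behind the 3 female libraries, and the ratio of the male mean to the female rate pooled over libraries was 1300000, with a 95% counting interval of 233000 to 51400000. The log2 fold change was 17.85 ± 1.85 (SE, limma adjusted p = 7.6e-06). Wingless males were close by, at 165100, 97440 and 235000, whereas sexual females ranged from 1.87 to 459.4. The F1, I18 and BK11 wingless asexual females stood at 19.35, 279.8 and 0, so reads were not absent from all asexual females.

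ACYPI000497-RA was next, at 145100, 142900 and 263400 in winged males and 0, 0 and 1.09 in winged females, which was 2 reads. Its ratio was 408000 with a counting interval of 113000 to 3370000, and its log2 fold change 17.07 ± 0.92 (limma adjusted p = 1.5e-07). These gene models were thus among the 100 with the most reads in winged males and nearly unread in winged females. The 2 increases with the smallest adjusted p were smaller. ACYPI086127-RA stood at 34980, 21790 and 32660 in winged males against 8.58, 12.5 and 20.7 in winged females (log2 fold change, male over female, 11.02 ± 0.40, limma adjusted p = 6.7e-09). ACYPI005139-RA stood at 15160, 24930 and 20450 against 2.15, 2.50 and 0.54 (12.91 ± 0.55, limma adjusted p = 2e-08). For all 4 the groups lay far apart, and the call held in 21 of 21 alternatives.

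**Figure D2:**
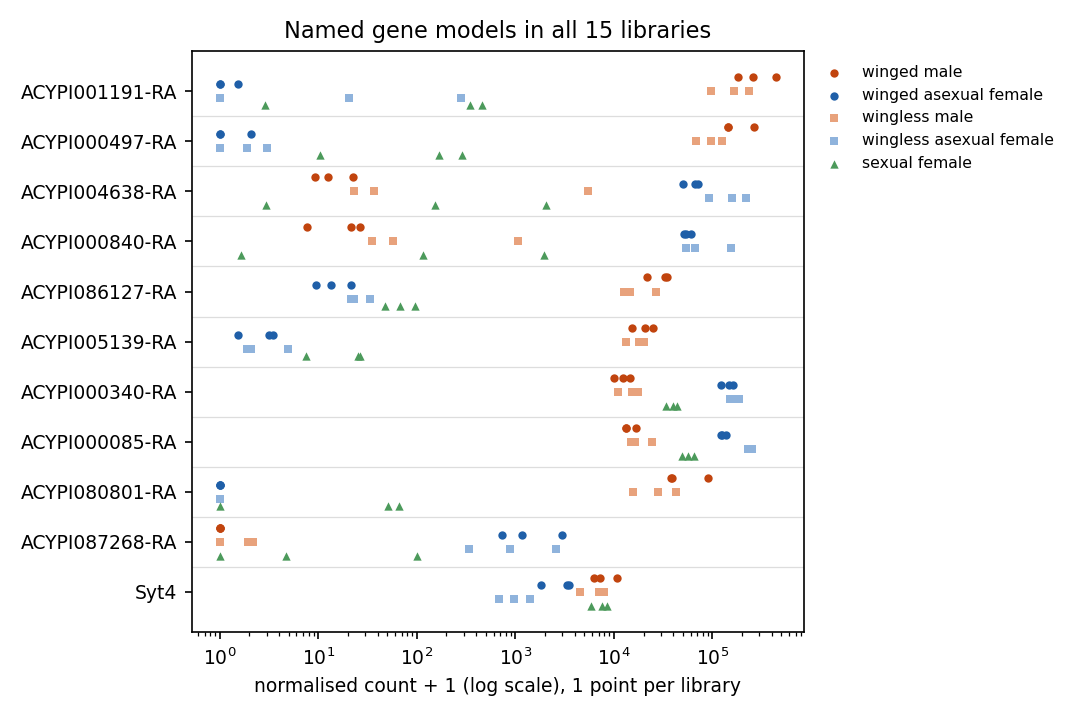
Normalised counts plus 1 (log scale) of 11 gene models, with 1 point per library and 1 colour and symbol per morph. For the male-high gene models other than Syt4, winged and wingless males stand together and all females lie orders of magnitude lower; for ACYPI000340-RA and ACYPI000085-RA sexual females lie between males and asexual females.

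On the female side, ACYPI004638-RA showed the largest decrease in males, at 11.5, 21.3 and 8.15 in the F1, I18 and BK11 winged males against 50410, 66080 and 70570 in the winged females (a log2 difference of −12.14 ± 2.06, limma adjusted p = 0.00042). ACYPI000840-RA stood at 25.6, 6.65 and 20.4 against 51040, 53430 and 60420 (−11.71 ± 1.87, limma adjusted p = 0.00027). Wingless asexual females had 92230 to 221300 of the first and 53780 to 153900 of the second, while sexual females had 1.92 to 2028 and 0.64 to 1961. The I18 wingless male stood above the other wingless males for both, at 5458 and 1065. Their call in wingless males against sexual females missed the threshold (limma adjusted p = 0.76 and 0.72). Smaller but more even decreases had the smallest p-values. ACYPI000340-RA was at 10030, 12420 and 14530 in winged males and 162400, 148300 and 122800 in winged females (a log2 difference of −3.56 ± 0.19, limma adjusted p = 1.6e-07). ACYPI000085-RA was at 13130, 13220 and 16870 against 136400, 124900 and 122100 (−3.16 ± 0.18, limma adjusted p = 1.9e-07). Sexual females lay between the sexes for both, at 34100 to 43590 and 49090 to 65330.

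The gene model with a symbol was Syt4 (ACYPI009209-RA). Synaptotagmin 4 is a vesicle membrane protein that acts in regulated secretion. Its normalised count was 10860, 6256 and 7292 in the F1, I18 and BK11 winged males and 3379, 3521 and 1819 in the winged females. Every male library lay above every female one, and the log2 fold change of 1.51 ± 0.34 passed the threshold (limma adjusted p = 0.0031), as it did in 21 of 21 alternatives, with adjusted p up to 0.0465. Sexual females, at 5875 to 8556, overlapped the winged males.

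More gene models were read in males alone than in females alone. Counting gene models that reached 10 in all 3 libraries of 1 group and had no read in the 3 of the other, 150 gene models were present in winged males alone and 20 in winged females alone. The 3 female libraries held more reads than the male ones, which made absence from females the stricter condition. Male means of the 150 ran from 15.6 to 56150 with a median of 259, and 33 reached 1000. In wingless males 145 of the 150 had at least 10 in all 3 libraries, in wingless asexual females 121 had no read at all, and in sexual females none reached 10 in all 3, although 11 had a mean of at least 10. Of all 20657 gene models, 17852 to 18334 reached 10 in a single wingless male library and 13902 to 15144 in a sexual female library. A read was found for 18809 to 19285 in a single wingless asexual female library. The 145 of 150 are therefore to be read beside a high level over all gene models. ACYPI080801-RA had the highest mean of these, at 38370, 38900 and 91180 in winged males, which was at least 26800-fold higher than in winged females when these are set to 3 reads per library.

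The 20 female gene models were weaker, with means from 13.0 to 1612 and a median of 41.7. In wingless asexual females 17 of them had at least 10 in all 3 libraries, and in wingless males none did, although 6 had a mean of at least 10 there and all but 1 had a read. In sexual females 7 of the 20 had at least 10 in all 3 libraries. Of all 20657 gene models, 14842 to 15222 reached 10 in a single wingless asexual female library. In a single sexual female library 13902 to 15144 did, and in a wingless male library 17852 to 18334. ACYPI087268-RA led them, at 1165, 724 and 2947 in the F1, I18 and BK11 winged females, at least 406-fold above the winged males at 3 reads per library. It was also present in wingless asexual females, at 885.8, 2594 and 336.1. Both numbers moved with the definition. Allowing up to 3 reads over the 3 libraries gave 365 and 83, requiring a count of 100 gave 63 and 2, and leaving out clone BK11, which has the deepest female library, gave 392 and 67. Without the BK11 winged male and the I18 winged female they were 268 and 53. Fewer libraries or a looser absence rule can only keep or raise these counts, and a higher level can only keep or lower them.

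The sides also differed in read count. Among the 6818 gene models with a mean of 10 to 100 over all 15 libraries, 22.8% were higher in winged males and 5.05% lower. Between 1000 and 10000, with 6180 gene models, the order was turned, with 18.7% higher and 35.4% lower. At 10000 or more, 29.2% of 696 were higher and 44.3% lower. The mean includes the libraries compared and more female than male libraries, which moves gene models low in females towards the lower classes. In winged males the median level was 345.5 for the higher and 450.1 for the lower calls, and in winged females 18.65 and 1554. The sides thus lay much closer in winged males than in winged females. Few reads limit the calls in the lowest class, where 13.9% were higher and 3.53% lower.

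**Figure D3:**
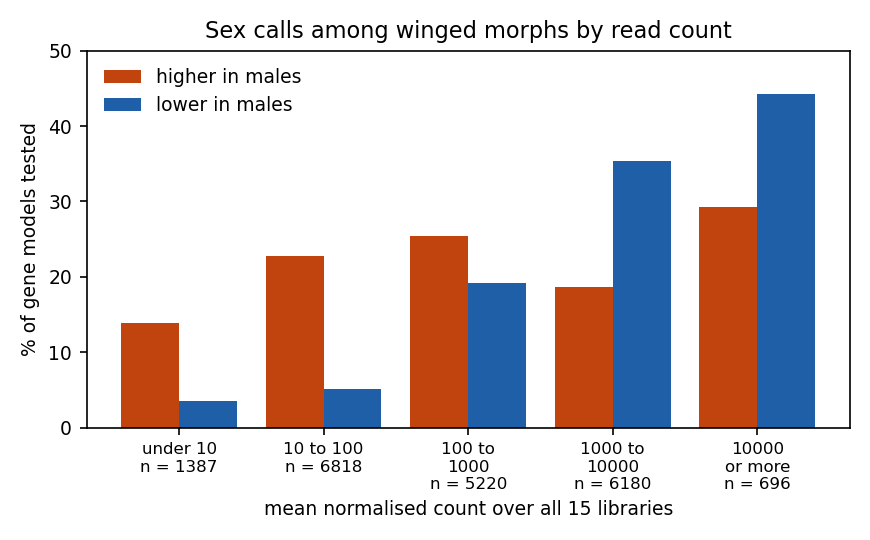
Bars give the percentage of gene models called higher (orange) or lower (blue) in winged males, in 5 classes of the mean normalised count over all 15 libraries, with the number tested in each class under the axis. Higher calls outnumber lower ones below 1000, at 22.8% against 5.05% between 10 and 100, and lower calls outnumber higher ones above 1000.

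Most of the RNA read in males came from gene models of the male side. The 4430 higher gene models held 55.5%, 57.5% and 55.9% of the normalised counts in the F1, I18 and BK11 winged males and 10.8%, 11.0% and 14.8% in the females. As these libraries chose the 4430, only the shares in the other morphs are of libraries that the choice did not use. They were 56.4%, 38.9% and 55.9% in the F1, I18 and BK11 wingless males, 12.1% to 12.8% in wingless asexual females and 10.9% to 14.1% in sexual females. The I18 wingless male thus stood apart. In that library the 13 gene models high in wingless asexual females had a median of 604.6 (1.72% of their source level), against 32.4 and 35.8 in the F1 and BK11 wingless males, whose values were used in choosing that list. Whether this bears on the lower share was not tested.

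Of the 100 gene models with the most reads in winged males and the 100 in winged females, 20 were shared. In the male list 73 were called higher in males and 6 lower, and in the female list 86 were called lower in males and 5 higher, against 21.8% higher and 19.2% lower over all gene models tested. Each list was chosen by the mean of a group that the calls compare, which favours calls on its own side. Most of them were read in both sexes, since the 73 had a median of 11210 in winged females, with 9 of them under 10, and the 86 had a median of 15720 in winged males, with none under 10. The male list held 33.0% to 36.7% of the counts in winged males and at most 12.2% in winged females. The female list held 26.6% to 28.7% in winged females and 10.5% to 12.1% in winged males.

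A dense group of gene models with very many reads stood out in the plot of fold change against mean count. With a winged female mean of at least 50000 and a log2 fold change between −3.5 and −2, limits chosen after the values were seen, it had 74 members, among them ACYPI000340-RA and ACYPI000085-RA. Their median log2 fold change was −2.65 (median SE 0.20), with all members between −3.39 and −2.09 by that choice. Together they held 17.2% to 19.6% of the counts in the winged females and 2.40% to 3.36% in the winged males. In morphs not used for the choice, the share was 20.5% to 21.5% in wingless asexual females, 7.80% to 9.49% in sexual females and 2.91% to 5.20% in wingless males. The median log2 difference between wingless males and wingless asexual females was −3.13, between wingless males and sexual females, which were reared alike, −1.37, and between sexual and wingless asexual females, which were not, −1.75.

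To see male gene models without choosing them on winged insects, 75 were taken with a count of at least 1000 in every wingless male and at most 10 in every wingless asexual and sexual female, a rule set after the values were seen. In the F1 winged male they ranged from 492.3 to 14250 with a median of 3672, in I18 from 583.9 to 10760 with a median of 2407, and in BK11 from 20.4 to 3445 with a median of 652.3. In the winged females the median was 0 in all 3 clones and the highest value 18.5. Each of the 75 was higher in every winged male than in every winged female, which held for 29.2% of all gene models tested. The winged male was below the wingless male of its clone for 75 members in F1, 72 in I18 and 74 in BK11, where the rule itself set a minimum in wingless males only. BK11 was the lowest of the winged males for 73 of the 75 and F1 stood above I18 above BK11 for 66. The BK11 wingless male was likewise the lowest wingless male for 71, at a median of 1888 against 7509 in F1 and 6704 in I18. In both BK11 males the 13 gene models high in sexual females had medians above 0, at 1.19% (winged male) and 0.417% (wingless male) of the sexual female level. The median was 0.00272% in the I18 winged male and 0 in the I18 wingless male. The I18 wingless male had the largest summed level of the males, 105300, with 1 member at 62650, against 38440 and 26420 in the BK11 winged and wingless males. Whether these levels bear on the lower values in BK11 was not tested.

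**Figure D4:**
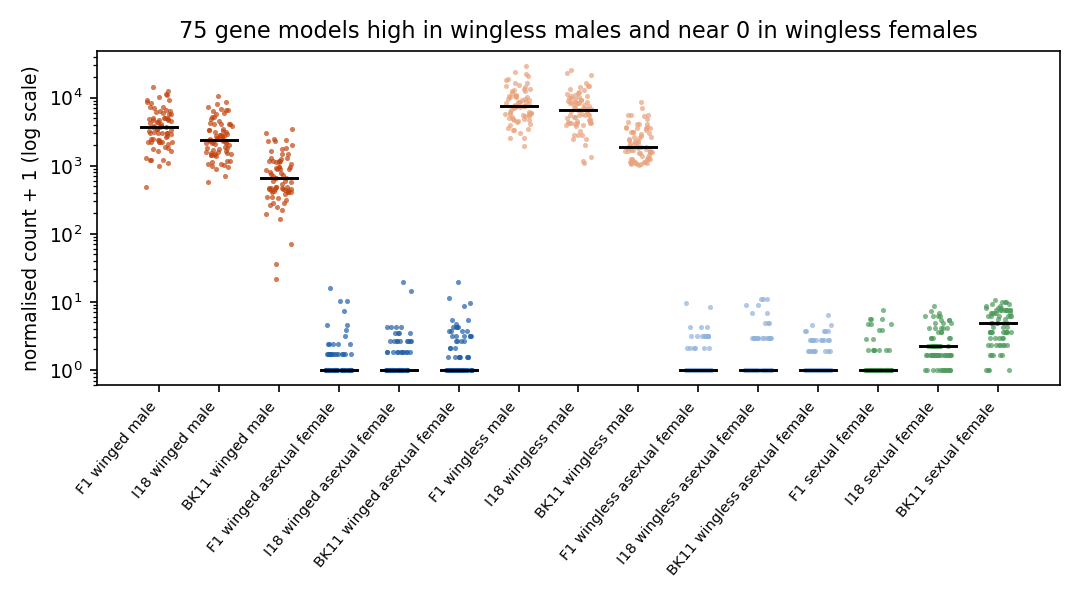
Normalised counts plus 1 (log scale) of the 75 gene models in each of the 15 libraries, with 1 point per gene model and a black line at the median. Winged males keep medians of 3672, 2407 and 652.3 in F1, I18 and BK11, whereas the medians of all winged females are 0; wingless and sexual libraries were used to choose the gene models.

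Calls made from 3 clones favour gene models on which the clones agree. The direction was the same in all 3 clones for 4376 of the 4430 higher (98.8%) and 3876 of the 3890 lower gene models (99.6%). Over all gene models tested, 36.6% were higher in the males of all 3 clones and 29.5% lower. The 3 male values lay wholly above the 3 female values for 4275 of the higher, against 29.2% of all gene models tested, and wholly below for 3851 of the lower, against 24.9%. Of the 54 higher gene models without a common direction, 47 were not higher in clone BK11, against 5 in F1 and 2 in I18. The male minus female log2 differences, taken across gene models that are no independent replicates, correlated with r = 0.87 between F1 and I18, 0.77 between F1 and BK11 and 0.71 between I18 and BK11. The median difference among the higher calls was 3.18 in F1, 3.15 in I18 and 2.48 in BK11, and among the lower calls −1.77, −1.62 and −1.74. The BK11 median was thus the smallest among the higher calls and lay between those of the other clones among the lower calls. The median SD of log2 values over the clones was 0.42 in winged males and 0.54 in winged females.

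Comparisons made of other libraries showed how far the calls extend beyond winged insects. They use none of the 6 winged libraries, but rest on the same 3 clones and 1 shared fit and are therefore no independent repeats of the winged comparison. Wingless males and wingless asexual females repeat the sex contrast, with its difference in rearing, and 47.4% of gene models were called there in either direction. Of the 4430 higher gene models 3439 (77.6%) were also called higher, which was 62.6% of the 5498 called higher in wingless males, and 32 were called lower. Over all gene models tested, 27.1% were called higher in that comparison. Of the 3890 lower gene models 2794 (71.8%) were also called lower, 67.7% of the 4130 lower calls, with 20.3% of all gene models tested called lower, and 30 were called higher.

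Wingless males and sexual females did not differ in day length or temperature, and 58.8% of gene models were called between them. Here 2875 of the 4430 (64.9%) were also called higher in males, against 32.0% of all gene models, and 234 lower. On the other side 2722 of the 3890 (70.0%) were also called lower, against 26.8%, and 389 higher. For gene models past 8-fold the sides parted. Of the 2174 that were 8-fold higher in winged males, 1716 (78.9%) were called higher in this comparison too. Of the 824 that were 8-fold lower, 363 (44.1%) were called lower and 128 higher. These 824 held 7.9% of the counts in the I18 wingless male, against 0.556% and 0.658% in the F1 and BK11 wingless males. Without the I18 wingless male, 2887 gene models of any fold were called lower in both comparisons. That was 70.2% of the lower winged calls in that fit, close to the 70.0% with all libraries. Whether that library bears on the 44.1% was not tested. Strong male gene models were thus mostly also higher in males than in sexual females, while a smaller share of those much higher in winged asexual females was also higher in sexual females than in males.

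Sexual and wingless asexual females differ in rearing, reproductive mode and age range, but not in sex, and 47.9% of gene models were called. Sexual females were higher for 1294 of the 4430 (29.2%, against 25.6% of all gene models tested) and lower for 544 (12.3%, against 22.3%). Of the 3890 lower in winged males, 1456 (37.4%, against 22.3%) were lower in sexual than in asexual females and 1297 (33.3%) higher. Among the 824 at 8-fold, 477 (57.9%) were lower in sexual females and 156 higher. The gene models most depleted in winged males were therefore often low in sexual females as well, as seen above for ACYPI004638-RA and ACYPI000840-RA.

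**Figure D5:**
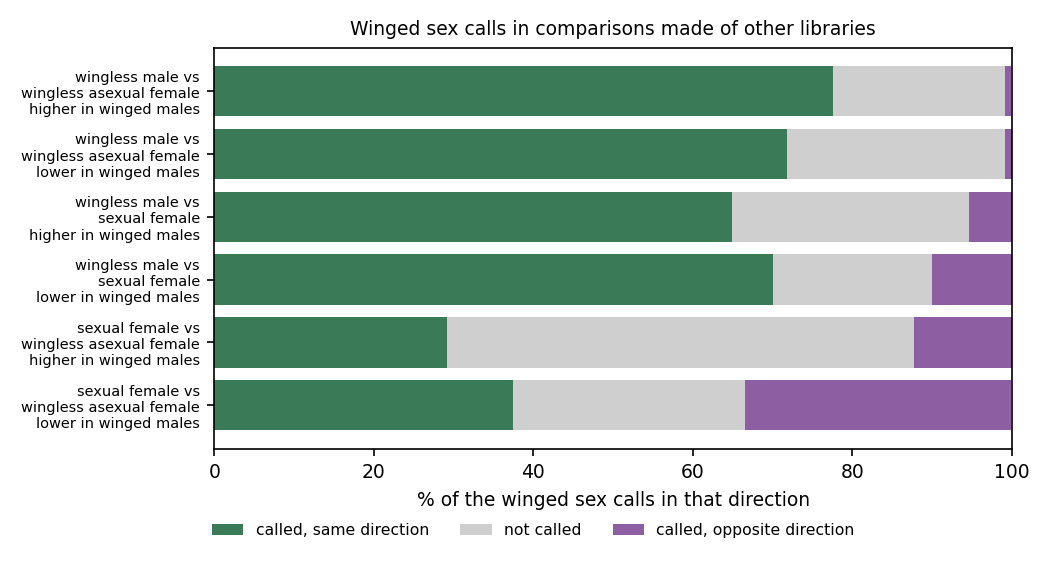
Bars split the winged sex calls of each direction (4430 higher, 3890 lower) by their call in 3 comparisons of wingless libraries, as percentages. Calls in the same direction reach 77.6% and 71.8% between wingless males and wingless asexual females, 64.9% and 70.0% between wingless males and sexual females, and 29.2% and 37.4% between sexual and wingless asexual females.

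Whether the sex difference itself changed with wings was tested as winged minus wingless sex difference. It was called for 380 gene models (1.87% of those tested), of which 260 (1.28%) were positive and 120 (0.591%) negative, and 211 of them lay among the 8320 winged sex calls (2.54%). The positive share was 68.4% as deposited, 55.0% with trimmed means, 50.8% by edgeR and 49.2% by DESeq2. In 303 of the 380 the sex difference was larger in wingless insects and in 77 larger in winged ones. The sex call was in the same direction in winged and wingless insects for 107, present in wingless insects alone for 169, in winged insects alone for 56, and opposite for 48. Sex calls were also more frequent in wingless insects over all gene models tested, at 47.4% against 41.0% in winged ones. For all but these 380 a change with wings was not shown, which does not make the differences equal.

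For the 2 largest positive changes the sexes were called in opposite directions. ACYPI41054-RA was higher in winged males, at 206.4, 1043 and 354.7 in F1, I18 and BK11 against 70.1, 26.7 and 91.9 in winged females (log2 difference 2.91 ± 1.02, limma adjusted p = 0.035). It was lower in wingless males than in wingless asexual females (−3.19 ± 1.02, limma adjusted p = 0.019). ACYPI065920-RA did likewise, with 2.71 ± 0.83 in winged and −3.23 ± 0.83 in wingless insects (limma adjusted p = 0.019 and 0.0056). The call in winged insects was lost in 8 of 21 alternatives for ACYPI41054-RA. Among them were those without the I18 or BK11 winged male or the F1 or I18 winged female. Over all 21 its adjusted p ran from 0.00106 (DESeq2) to 0.294 (limma without clone I18). For ACYPI065920-RA the call in winged insects was lost in 5 of 21, among them without the I18 winged male or the F1 or BK11 winged female. Its adjusted p ran from 0.00076 (DESeq2) to 0.114 (limma without clone I18). The negative changes were sex differences of wingless insects that did not pass the threshold in winged ones. ACYPI001157-RA had 8.27 ± 1.05 in wingless and 1.50 ± 1.05 in winged insects (limma adjusted p = 2.6e-05 and 0.28), and ACYPI46674-RA 8.43 ± 0.91 and 1.80 ± 0.91 (limma adjusted p = 6.4e-06 and 0.13). None of the 380 calls was kept by limma when a clone was left out or without the I18 wingless male and the BK11 winged male, wingless male and sexual female, and the positive and negative calls fell to 5 each without the BK11 winged male and the I18 winged female.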

How the data were processed

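RNA of 15 whole-body pools was sequenced on an Illumina instrument, per the labels. The deposited values are a signal, namely read counts per gene model that the authors scaled by library. The submitters' processing notes name DESeq2, whereas aligner, genome build, annotation and strand setting were not given in the sources used here. All values (100%) were whole multiples of the value of 1 read within 0.001 of a read, so reads were recovered. A count of 3 reads, the limit that 0 allows, equals 1.63 to 4.08 normalised counts in the winged libraries. The counting intervals and the read limits cover counting error only. The 95% intervals of gene models not called come from the limma fit and its spread among libraries.

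Log2(value + 1) was fitted with limma 3.58.1 in R 4.3.3 (trended prior variance, 5 morph means, all 15 libraries). Gene models reaching 10 in 3 or more libraries were tested (20301, with 356 left out). Adjustment was by Benjamini and Hochberg, with a threshold of 0.05. The fit was also run on simulated data with no clone effect and changes planted in winged males alone. That run gives no error rate for these libraries. Fold changes on this scale understate changes near 0. Recovered reads were also tested with edgeR 4.0.16, which called 3721 higher and 4529 lower in winged males, and DESeq2 1.42.0, which called 5020 and 4331. Other alternatives changed scaling, pseudocount, filter, prior variance, the groups in the fit and the libraries kept.

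Samples pair by clone. Deviations from the morph mean correlated across gene models between the winged male and winged female of a clone, with r = 0.488 in F1, 0.212 in I18 and 0.178 in BK11. The fit with this block was an alternative.

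Gene models named were the 2 per direction with the largest fold change and the 2 with the smallest adjusted p (mean of at least 100 over all libraries, same direction in 3 clones), the 2 per direction with the largest winged minus wingless difference (same minimum, no condition on clones), the leading gene model of each presence list, and any with a symbol (Syt4, in the gene table of assembly pea_aphid_22Mar2018_4r6ur_v2). A stricter rule for gene models of sexual females found 0 members. Comparisons, lists and rules were chosen with earlier results of these data known.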

Additional observations from a re-analysis of the deposited data

Results flagged for a closer look

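The sex difference differed between winged and wingless insects, by a test of the difference itself, in 380 gene models (limma, adjusted p threshold 0.05). Among those with a mean of at least 100, the largest positive winged minus wingless differences on the log2 scale were 6.09 ± 1.44 for ACYPI41054-RA and 5.95 ± 1.18 for ACYPI065920-RA (SE, limma adjusted p = 0.049 and 0.028). The largest negative ones were −6.77 ± 1.49 for ACYPI001157-RA and −6.63 ± 1.29 for ACYPI46674-RA (limma adjusted p = 0.041 and 0.027). In wingless males ACYPI001157-RA was at 380.2, 2171 and 99.4 and ACYPI46674-RA at 366.0, 1534 and 71.7 in F1, I18 and BK11, so the I18 wingless male was the highest for both. Wingless asexual females had at most 1.80 of the former and 0 of the latter. These calls were lost in 18 of 27 alternatives for ACYPI41054-RA, 11 of 27 for ACYPI065920-RA, 16 of 27 for ACYPI001157-RA and 11 of 25 for ACYPI46674-RA.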

How the results depend on the processing

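Of 21 alternatives, 20 kept the count of higher gene models and 19 that of lower ones within 1.5 times, and the winged sex calls of 11 named gene models kept direction and threshold in all 21. Those of ACYPI41054-RA and ACYPI065920-RA kept direction in all 21 and passed in 13 and 16. With clone as a replicate block 5058 were higher and 4178 lower, and 344 and 176 winged minus wingless differences were positive and negative, so the block moved no count by over 1.5 times. Leaving out libraries or clones gave 2925 (without F1) to 4399 higher and 2409 (without BK11) to 3646 lower, with 2477 lower without F1. Calls shared with wingless males against wingless asexual females ran from 2207 to 3456 (higher) and 1447 to 3273 (lower), with wingless males against sexual females from 1628 to 2960 and 1533 to 2887, and with sexual against wingless asexual females from 730 to 1489 and 805 to 1595. The lowest of these counts were without F1 or without BK11. Shares of the winged calls were 70.6% to 84.6% (higher) and 60.1% to 84.2% (lower) for wingless males against wingless asexual females. For wingless males against sexual females they were 55.7% to 69.5% and 61.9% to 73%. For sexual against wingless asexual females they were 20.9% to 33.7% and 33.4% to 40.1%.

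Winged minus wingless differences were the least stable. Leaving out libraries or clones gave 0 to 473 positive and 0 to 275 negative calls. Without clone F1, I18 or BK11 limma called 0 of either sign, with 981, 1249 and 1310 positive and 1004, 745 and 1442 negative at an unadjusted p under 0.05. Without 4 doubted libraries (I18 wingless male, BK11 winged male, BK11 wingless male and BK11 sexual female) it also called 0 and 0, with 1302 and 1041 unadjusted. In all 15 libraries edgeR called 92 positive and 89 negative, and DESeq2 795 and 820. Without the BK11 winged male and the I18 winged female, chosen after seeing the data, 5 and 5 were called. Single libraries moved them too. Positive and negative calls were 81 and 45, 26 and 13, and 45 and 18 without the F1, I18 or BK11 winged male, 40 and 12, 33 and 18, and 473 and 275 without these winged females, 83 and 33, 201 and 64, and 200 and 191 without these wingless males, and 26 and 21, 240 and 59, and 31 and 13 without these wingless asexual females.

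Presence in 1 sex alone followed its definition. Allowing 3 reads gave 365 gene models in males and 83 in females, a level of 100 gave 63 and 2, the 4 libraries left without those 2 gave 268 and 53, and leaving out a clone gave 188 to 392 and 31 to 67. The direction of these moves was fixed by the definition. Dropping libraries or allowing reads can only keep or raise the counts, and a higher level can only keep or lower them. What set the size of the moves was not tested. Depth limits absence calls, since 3 reads are worth more in the shallower male libraries.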
